A study of Drosophila melanogaster with 12 samples.

Results

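The 44 genes described here encode voltage-gated and other ion channels of Drosophila melanogaster neurons, some of their auxiliary subunits, and ligand-gated receptors for fast neurotransmitters. They were taken from a list of gene names, without a cut on measured values, but the list was chosen with earlier results of these data known. All 44 were found among the 17737 genes of the count files, and all 44 passed the filter on low counts that left 11223 genes for testing. RNA had been taken from whole heads of newly eclosed adults, with 60 heads pooled in each library, and was sequenced after ribosomal RNA had been removed. The 12 libraries form 4 groups of 3. The null females and null males carry Nab2ex3, an allele of Nab2 that the labels give as null, and the control females and males carry Nab2pex41, which the labels call wild type. The series' design text calls the 3 libraries of a group biological replicates, but the labels do not say whether they came from separate crosses or collections, so the p-values measure the spread between these libraries only. In whole heads, fewer neurons and less RNA per neuron cannot be told apart.

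Voltage-gated sodium channels start the action potential, potassium channels end it and set the time to the next one, and calcium channels at the nerve ending trigger transmitter release. Acetylcholine is the main fast excitatory transmitter of the insect brain and opens nicotinic receptors, while GABA and glutamate open inhibitory chloride channels and histamine is the transmitter of the photoreceptors. Nab2 is a zinc finger protein that binds polyadenosine RNA and is needed for normal neuronal function in the fly.

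The libraries held 23648813 to 30751922 counts assigned to genes. Levels are given as CPM, counts per 1000000 of the library total after scaling (TMM factors). Nab2 stood at 57.3 to 62.1 CPM in wild-type and 0.580 to 1.20 CPM in null females, and at 60.03 to 64.00 CPM in wild-type and 0.456 to 3.21 CPM in null males, so each library fitted its genotype label. All 12 neuronal markers (elav, nSyb, brp, Syt1, Syx1A, cpx, CadN, fne, VAChT, ChAT, Gad1 and VGlut) passed the low-count filter, as did markers of photoreceptors, glia, muscle and fat body. A pair of libraries stood apart. Null female library 1 held the lowest of the 12 values for 35 of the 44 members and for all 12 neuronal markers. Wild-type male library 3 held the highest value for 23 members and for 10 neuronal markers, and counts that change without either library are given below.

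Levels of the 44 members differed widely when set per kilobase of exonic length, the total length covered by any annotated exon of the gene. The highest was Lcch3, a GABA receptor subunit, at 38.4 CPM per kb over the 12 libraries, followed by the potassium channel Shal at 31.4 CPM per kb and the calcium-activated potassium channel slo at 27.98 CPM per kb. This order holds per length only: group means in CPM were 69.5 to 78.0 for Lcch3 and 263 to 306 for slo. Of the exonic length of Lcch3, 31.3% overlaps Ranbp16 and an antisense RNA on the other strand. The strand setting used for counting is not given, so some counts of Lcch3 may be shared. The lowest were the inward rectifier Irk1 at 1.97 CPM per kb, the NMDA receptor subunit Nmdar2 at 2.92 CPM per kb and the potassium channel eag at 3.56 CPM per kb. Irk1 shares 61.0% of its exonic length with other annotated exons on the same strand, and its place depends on how shared reads were counted. Had every count come from the unshared part, its level would be 5.06 CPM per kb, above Nmdar2 and eag. Among the sodium channel genes, para stood highest at 14.8 CPM per kb and its partner tipE lowest at 4.86 CPM per kb. Calcium channel genes ran from stj at 23.3 CPM per kb down to Ca-beta at 4.75 CPM per kb. Nicotinic receptor subunits ran from nAChRalpha7 at 24.6 CPM per kb down to nAChRalpha3 at 4.87 CPM per kb. The 3 genes of the sodium leak channel were the closest in level, from unc80 at 19.5 CPM per kb to na (narrow abdomen) at 13.01 CPM per kb. The smallest count of any member in any library was 174, for Irk1.

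**Figure D1:**
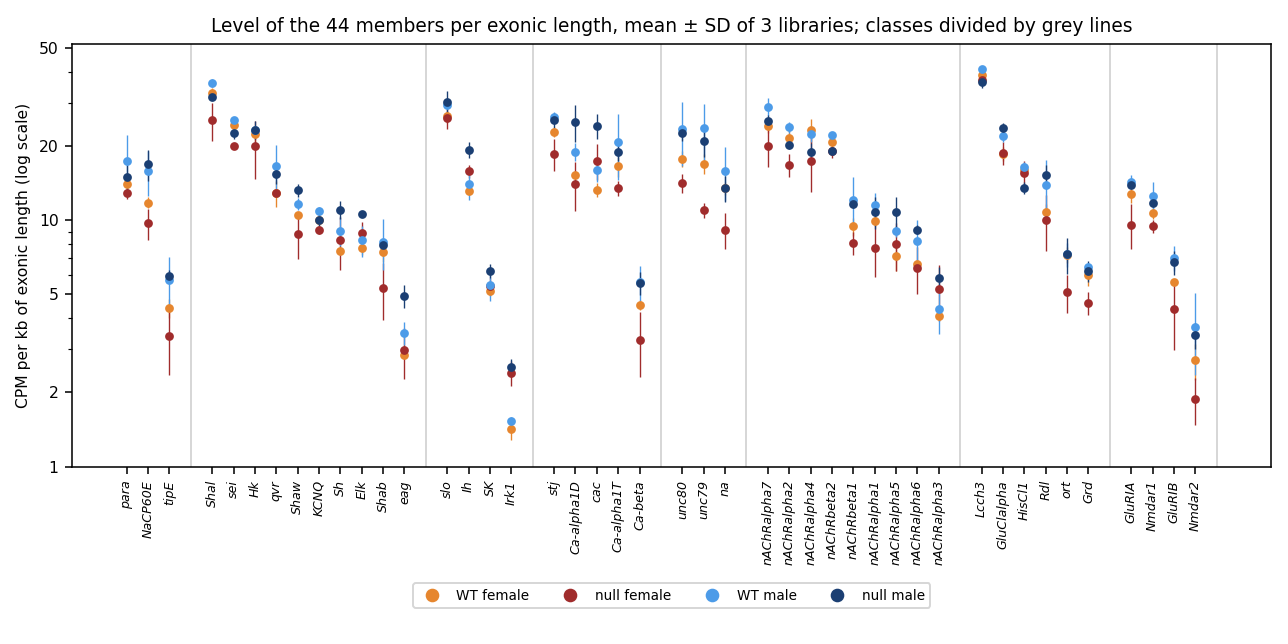
Level of each of the 44 members in CPM per kb of exonic length (log axis) for the 4 groups, as the mean and SD of 3 libraries, with members sorted by level within each class and classes divided by grey lines. Lcch3 was the highest at 38.4 CPM per kb over all libraries and Irk1 the lowest at 1.97 CPM per kb.

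In females, loss of Nab2 went with lower levels of 9 channel and receptor genes and higher levels of 2. The 9 lower genes came from 6 of the 8 classes: the potassium channels Shal and sei, the calcium channel subunit stj, the leak channel genes na and unc79, the nicotinic subunit nAChRalpha2, the chloride channels Grd and ort, and the glutamate receptor GluRIA. Their fitted decreases ran from -0.28 ± 0.07 (log2 ± SE) for sei to -0.63 ± 0.16 for unc79. The 2 higher genes were Irk1 and cac, the calcium channel of transmitter release. Calls were made at an adjusted p under 0.05 in edgeR's quasi-likelihood test, with adjustment over all 11223 genes. Among all genes tested, 31.8% were called in this comparison, 18.2% as higher and 13.6% as lower. The median log2 change of the members was -0.20 against 0.0072 for all genes tested, and 34 of the 44 changes were negative. For 19 members, all 3 null females lay below all 3 wild-type females, as did 23.2% of all genes tested.

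The female count varied with the libraries in the fit. With wild-type female library 2 left out 3 members were called (Irk1, sei and ort). With wild-type female library 3 left out 4 were (Irk1, sei, unc79 and Grd). With only the 6 female libraries in the fit 4 were called (Irk1, na, unc79 and ort). In these 3 fits the share of all genes called fell as well, to 18.0%, 18.1% and 21.1%. Without null female library 1, which stood apart, 10 were called, 6 lower and 4 higher, with 23.2% of all genes called. The neuronal markers moved with the members. Their summed level was 5383 to 5543 CPM in the wild-type females and 3329 to 4942 CPM in the null females, 4 of the 12 were called lower (Syt1, ChAT, Gad1 and VGlut), none was called higher, and their median log2 change was -0.36. Fat body markers moved the other way. Their summed level was 4029 to 6132 CPM in wild-type females and 21289 to 35931 CPM in null females, and 9 of 11 were called higher. Libraries were also scaled to the neuronal markers in place of TMM, an alternative chosen after seeing the data. No member was then called lower in null females and 9 were called higher. In that fit 2.25% of all genes were called lower and 26.7% higher, with the median of all genes at 0.40. The part of the cell type markers in the changes of the members was not tested further.

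In males, loss of Nab2 went with higher levels of 3 members and with lower levels of none. The 3 were Irk1, cac and Ih, the channel of the hyperpolarisation-activated current. Among all genes tested, 9.93% were called in males, 4.89% as higher and 5.03% as lower. The median log2 change of the members was -0.046, against -0.0048 for all genes tested, and 19 of the 44 changes were positive. All 3 null males lay above all 3 wild-type males for 7 of the 44 members and below them for 8. The same held for 1836 and 1972 of the 11223 genes tested, a similar share, so such separation in males does not mark out the members. Irk1 alone was called when wild-type male library 1, wild-type male library 2 or null male library 3 was left out, with 5.49%, 6.33% and 6.03% of all genes called. Without null female library 1, which is in neither male group and enters through the shared fit, 11 members were called, 8 higher and 3 lower, with 16.1% of all genes called. DESeq2 called 7 members and 13.1% of all genes, adding eag and Elk as higher and nAChRbeta2 and HisCl1 as lower. The neuronal markers summed to 5351 to 6369.9 CPM in wild-type males and 5346 to 5749 CPM in null males, and none of the 12 was called. Without wild-type male library 3, the median of the members was 0.12 and 32 of the 44 changes were positive.

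No member passed the test of the difference between the null effects in females and in males, and 1 gene of all 11223 did (0.00891%). An unadjusted p under 0.05 was reached by 4 of the 44 members (Shaw, Ca-alpha1D, Grd and ort). It was reached by 1297 of the 11223 genes tested. DESeq2 called none of the 44 and 0.241% of all genes. The difference was negative, lower in females than in males, for 38 of the 44, with a median of -0.17 on the log2 scale against 0.027 for all genes tested. The median was -0.08 without null female library 1, -0.27 without null female library 2 and -0.29 without wild-type male library 3. A call in 1 sex and not in the other is thus not shown to be an effect of 1 sex only.

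**Figure D2:**
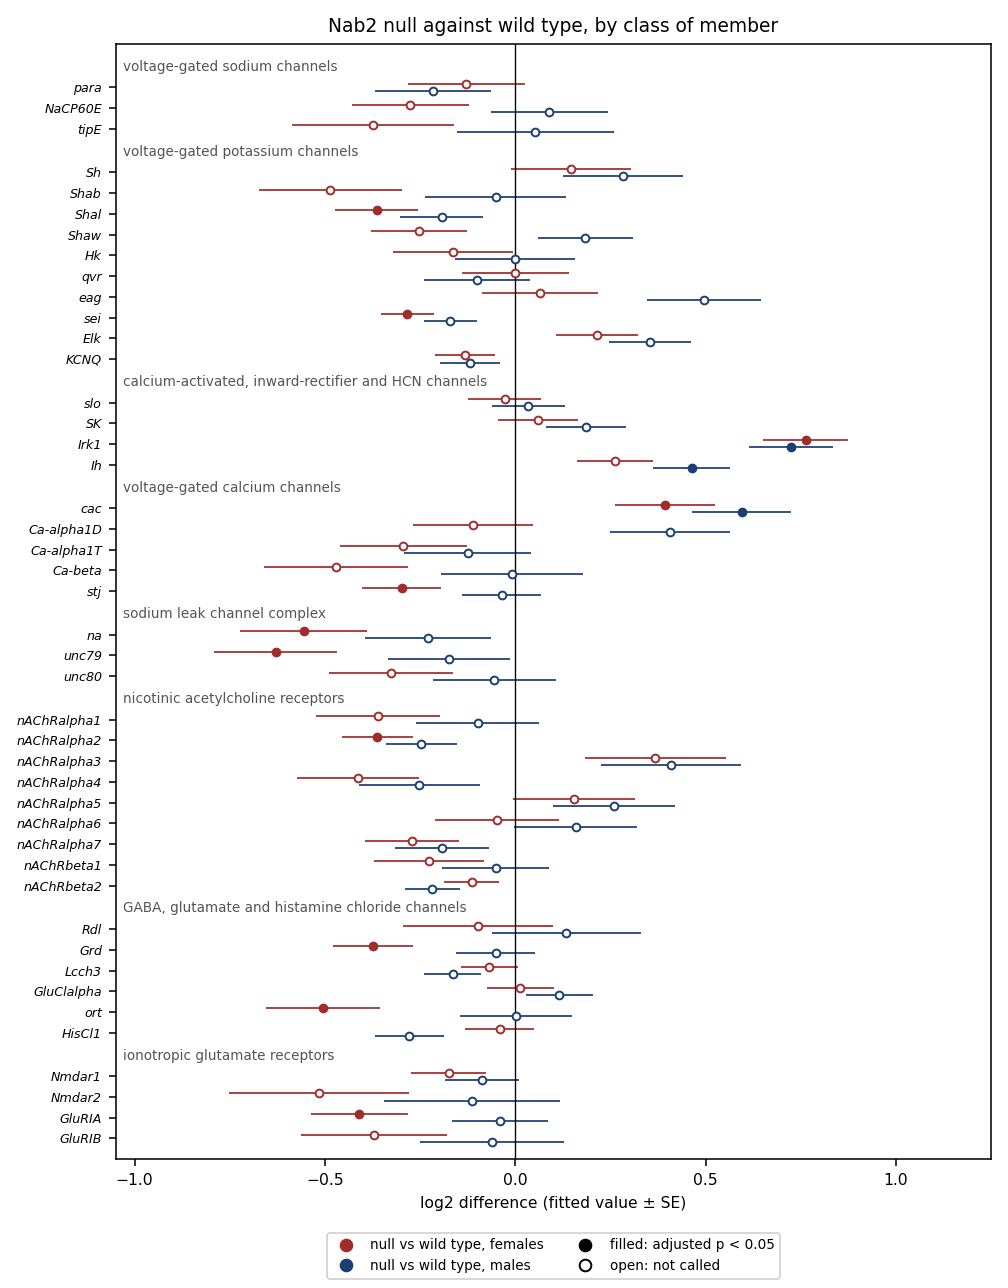
Fitted log2 difference of null from wild type with its SE for the 44 members by class, in females (red) and in males (blue), where filled points passed an adjusted p under 0.05. In females 9 members were called lower and 2 higher, and in males 3 were called higher.

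Between null males and null females, 26 of the 44 members were called higher in males, including all 5 calcium channel genes, all 3 leak channel genes and all 4 glutamate receptors, and none was called lower. Among all genes tested, 29.1% were called in this comparison, 13.1% as higher in males and 16.0% as lower. The median log2 difference of the members was 0.43 against -0.060 for all genes tested. For 35 members, all 3 null males lay above all 3 null females, against 19.5% of all genes tested. The count fell to 14 without null female library 1, to 13 without null male library 1, to 6 without null male library 3 and to 7 with only the 6 null libraries in the fit. The share of all genes called fell with it, to 16.3%, 20.2%, 7.96% and 5.29%. The 7 members called with only the null libraries were NaCP60E, Ca-alpha1D, Ca-alpha1T, unc79, unc80, nAChRbeta1 and Nmdar2. The neuronal markers moved with these members as well: 8 of 12 were called higher in null males than in null females, with a median of 0.54. With libraries scaled to the neuronal markers, no member was called higher in null males and 6 were called lower. The 6 were Irk1, nAChRalpha3, nAChRalpha4, nAChRbeta2, Lcch3 and HisCl1. In that fit 0.766% of all genes were called higher in null males and 57.0% lower. The median of the members was -0.09 with that of all genes at -0.63.

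In wild-type flies, no member was called between the sexes, with 3.37% of all genes tested called. An unadjusted p under 0.05 was reached by 7 of the 44 members (NaCP60E, qvr, unc79, unc80, nAChRbeta1, GluClalpha and Nmdar1). It was reached by 1946 of the 11223 genes tested. DESeq2 called none of the members and 5.28% of all genes. Of the 44 fitted differences, 43 were higher in males, against 48.8% of all genes tested, and the median was 0.23 against -0.0064. The neuronal markers moved with the members here too, with 11 of 12 higher in males, a median of 0.20 and none called. All 12 muscle markers were lower in males, 2 of them called, and their sums did not overlap, at 22318 to 25658 CPM in wild-type females against 16622 to 19176 CPM in wild-type males. Scaled to the neuronal markers, 24 of the 44 members were higher in males, with a median of 0.04 and that of all genes at -0.17. The part of these markers was not tested further. For 20 members, all 3 wild-type males lay above all 3 wild-type females, against 15.3% of all genes. Without wild-type male library 3, which held the highest value for 23 members, 37 of the 44 were higher in males and the median was 0.12. The comparisons of null with wild-type females and of null males with null females share the 3 null female libraries. Of the 9 members lower in null females, 7 were also called higher in null males than in null females, the exceptions being sei and nAChRalpha2.

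**Figure D3:**
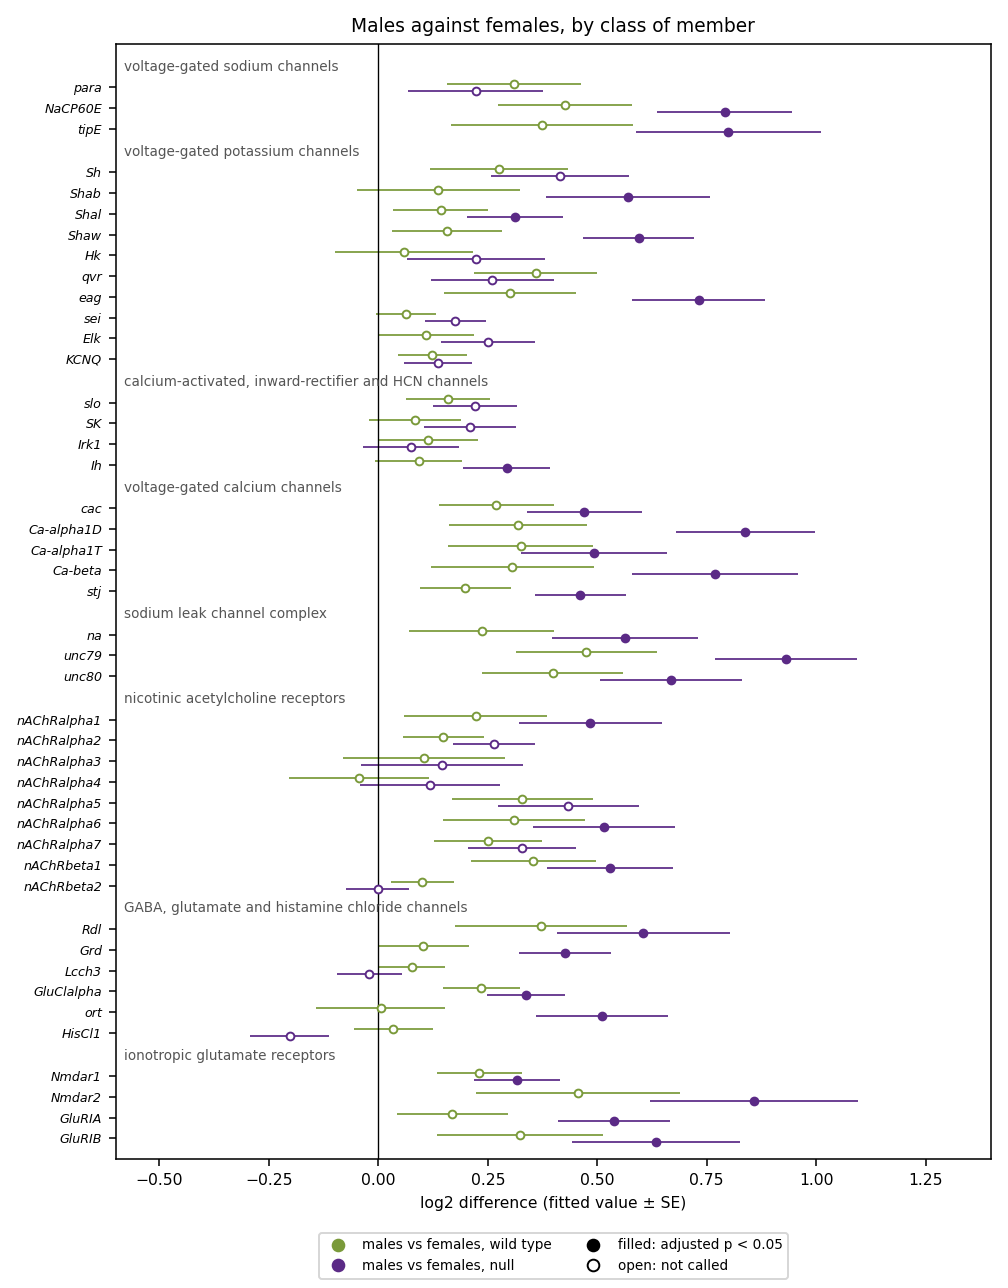
Fitted log2 difference of males from females with its SE for the 44 members by class, in wild type (green) and in the null (purple), where filled points passed an adjusted p under 0.05. In the null 26 members were called, all higher in males, and in wild type none was called.

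The voltage-gated sodium channel genes showed no called change with loss of Nab2. The pore-forming subunit para, which carries the action potential, stood at 218, 226 and 243 CPM in wild-type and 203, 222 and 204 CPM in null females, and 236, 244 and 372 CPM in wild-type and 278, 227 and 228 CPM in null males. Its 12 values overlapped between the genotypes in both sexes, apart from a high value in wild-type male library 3. NaCP60E, a relative of the sodium channels, stood at 175, 184 and 195 CPM in wild-type and 127, 166 and 164 CPM in null females, and 216, 221 and 306 CPM in wild-type and 277, 221 and 292 CPM in null males. All 3 null females lay below all 3 wild-type females, and both male groups lay above both female groups. NaCP60E was higher in null males than in null females by 0.79 ± 0.15 (edgeR adjusted p = 0.00691), whereas the female null change of -0.28 ± 0.15 did not pass (edgeR adjusted p = 0.182). For tipE, a membrane protein that raises the current of para, the values were 19.5, 16.3 and 18.2 CPM in wild-type and 9.005, 17.1 and 15.5 CPM in null females, and 21.00, 19.2 and 29.8 CPM in wild-type and 23.4, 23.5 and 25.8 CPM in null males. Null female library 1 was far below all others, and every male library lay above every null female library. The difference of null males from null females was 0.80 ± 0.21 (edgeR adjusted p = 0.0192) and was lost without null male library 3 (at 0.75).

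Among the 10 voltage-gated potassium channel genes, 2 were lower in null females, none was called in null males and 4 were higher in null males than in null females. Shal, which carries a fast inactivating current in the cell body and dendrites, stood at 143, 159 and 150.1 CPM in wild-type and 94.2, 135 and 122 CPM in null females, and 161, 172 and 166 CPM in wild-type and 145, 145 and 146 CPM in null males. The null values lay below the wild-type values in both sexes. In females it changed by -0.36 ± 0.11 (edgeR adjusted p = 0.0259) and the male difference was -0.19 ± 0.11 (edgeR adjusted p = 0.319). For sei, the fly's ERG-type channel whose loss gives seizures in heat, levels were 76.3, 83.7 and 79.1 CPM in wild-type and 66.7, 63.5 and 66.2 CPM in null females, and 85.1, 80.8 and 84.01 CPM in wild-type and 71.1, 78.3 and 72.5 CPM in null males. Here too null and wild-type libraries did not overlap in either sex. Null females differed from wild type by -0.28 ± 0.07 (edgeR adjusted p = 0.0105) and the male difference was -0.17 ± 0.07 (edgeR adjusted p = 0.152). Of the exonic length of sei, 14.6% overlaps gammaSnap1 and ppk29 on the other strand, and the strand setting used for counting is not given. The overlapping ppk29 was itself called lower in the null, by -0.75 ± 0.25 in females and -1.28 ± 0.26 in males. The more abundant gammaSnap1 was called in neither sex. The part of these reads in the sei values was not tested. The Shal call in females was lost without wild-type female libraries 2 or 3 (at -0.37 to -0.32), and that of sei held without any 1 library. Shal was also higher in null males than in null females, by 0.31 ± 0.11 (edgeR adjusted p = 0.04996), a call at the edge of the threshold that was lost without wild-type female libraries 1, 2 or 3, null female libraries 1 or 3, wild-type male libraries 1, 2 or 3 or null male libraries 1, 2 or 3 (at 0.19 to 0.34).

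Other potassium channel genes differed between the sexes of the null. For eag, which gives mutants that shake their legs under ether, the values were 28.9, 31.2 and 30.5 CPM in wild-type and 23.1, 36.5 and 35.03 CPM in null females, and 34.2, 35.8 and 41.8 CPM in wild-type and 51.5, 47.5 and 58.5 CPM in null males. All 3 null males lay above every other library. The difference of null males from null females was 0.73 ± 0.15 (edgeR adjusted p = 0.00853), and the male null change of 0.49 ± 0.15 did not pass (edgeR adjusted p = 0.0576). Shaw, which opens with weak dependence on voltage, stood at 50.6, 53.1 and 53.3 CPM in wild-type and 33.3, 49.4 and 48.9 CPM in null females, and 55.7, 57.3 and 62.05 CPM in wild-type and 64.3, 63.7 and 70.9 CPM in null males. Null males were again above every other library and null female library 1 was the lowest. Null males and null females differed by 0.59 ± 0.13 (edgeR adjusted p = 0.00916). The calls of eag and Shaw held without any 1 library. For Shab, the main delayed rectifier, levels were 76.1, 90.7 and 87.04 CPM in wild-type and 42.4, 69.95 and 68.8 CPM in null females, and 80.6, 80.5 and 118 CPM in wild-type and 92.4, 86.8 and 90.04 CPM in null males. Null females were lowest as a group, and wild-type male library 3 was highest. Its difference between the sexes of the null was 0.57 ± 0.19 (edgeR adjusted p = 0.0406), lost without wild-type female libraries 2 or 3, null female library 1 or null male libraries 1, 2 or 3 (at 0.38 to 0.59), and its female null change of -0.49 ± 0.19 did not pass (edgeR adjusted p = 0.0657).

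The other 5 potassium channel members were called in no comparison. Sh, the fast inactivating channel of axons and terminals, averaged 7.50 CPM per kb in wild-type and 8.29 CPM per kb in null females, and 9.08 CPM per kb in wild-type and 11.1 CPM per kb in null males, with null differences of 0.15 ± 0.16 in females and 0.28 ± 0.16 in males. Its beta subunit Hk averaged 22.4 CPM per kb in wild-type and 19.96 CPM per kb in null females, and 23.3 CPM per kb in wild-type and 23.3 CPM per kb in null males, with differences of -0.16 ± 0.16 and 0.00 ± 0.16. None of these differences passed. The Ly6 protein qvr, which promotes Sh and sleep, averaged 12.9 CPM per kb in wild-type and 12.9 CPM per kb in null females, and 16.5 CPM per kb in wild-type and 15.4 CPM per kb in null males, with differences of 0.00 ± 0.14 and -0.10 ± 0.14. KCNQ, the channel of the slow M-type current, averaged 10.01 CPM per kb in wild-type and 9.13 CPM per kb in null females, and 10.9 CPM per kb in wild-type and 10.04 CPM per kb in null males, with differences of -0.13 ± 0.08 and -0.12 ± 0.08. For Elk, a relative of eag, the values were 38.2, 43.2 and 42.01 CPM in wild-type and 41.8, 51.3 and 50.1 CPM in null females, and 41.3, 40.2 and 51.6 CPM in wild-type and 58.4, 56.3 and 55.6 CPM in null males. The 3 null males were the highest of all libraries, and the male change was 0.35 ± 0.11 (edgeR adjusted p = 0.0582).

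Irk1, an inward-rectifying potassium channel, had the highest fitted null change of the 44 in each sex. Its level was 8.12, 6.70 and 7.44 CPM in wild-type and 11.4, 14.2 and 12.2 CPM in null females, and 7.71, 8.34 and 8.06 CPM in wild-type and 12.4, 14.5 and 12.97 CPM in null males. Every null library lay above every wild-type library, and the sexes overlapped within each genotype. The change was 0.76 ± 0.11 in females (edgeR adjusted p = 0.000728), while males showed 0.72 ± 0.11 (edgeR adjusted p = 0.00166), with a difference between the sexes of 0.039 ± 0.16. In females the call held in all 19 alternatives, at 0.65 to 1.14. In males it was lost with scaling to the neuronal markers alone, where the change was still 0.72 but with an SE of 0.19 (edgeR adjusted p = 0.0624). Irk1 lies on chromosome arm 3R at 23168317 to 23185642 (assembly BDGP6.54), and 61.0% of its exonic length is shared with other annotated exons on the same strand. The overlapping genes are the transcription factor gene cnc and CG46310, which had 0 counts in every library. The share of each was not separated. Reads of the shared part cannot be assigned with certainty, and cnc itself changed by -0.32 ± 0.12 in females (edgeR adjusted p = 0.0514), while males showed -0.10 ± 0.12 (edgeR adjusted p = 0.676).

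Ih encodes the hyperpolarisation-activated cation channel, which sets rhythmic firing. Its level was 168, 163 and 172 CPM in wild-type and 188, 210.4 and 204 CPM in null females, and 161, 167 and 208 CPM in wild-type and 233, 238 and 267 CPM in null males. Null libraries lay above wild-type libraries in both sexes, with null males highest. The male change was 0.46 ± 0.10 (edgeR adjusted p = 0.0127), the female change was 0.26 ± 0.10 (edgeR adjusted p = 0.064), and the sexes of the null differed by 0.29 ± 0.10 (edgeR adjusted p = 0.0462). The male call was lost without wild-type male libraries 1 or 2 or null male library 3 (at 0.39 to 0.42), and the call between the sexes of the null was lost without wild-type female libraries 1, 2 or 3, null female libraries 1 or 3, wild-type male libraries 1 or 2 or null male libraries 1, 2 or 3 (at 0.23 to 0.33). The large-conductance calcium-activated channel slo stood at 285, 259 and 259 CPM in wild-type and 234, 278 and 276 CPM in null females, and 304, 296 and 297 CPM in wild-type and 329.8, 269 and 319.7 CPM in null males. Its groups overlapped between genotypes, and its null changes were -0.028 ± 0.10 in females and 0.034 ± 0.10 in males. The small-conductance channel SK averaged 5.18 CPM per kb in wild-type and 5.40 CPM per kb in null females, and 5.48 CPM per kb in wild-type and 6.24 CPM per kb in null males, with null differences of 0.06 ± 0.11 in females and 0.19 ± 0.11 in males, and neither slo nor SK was called in any comparison.

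Within the calcium channel genes, cac rose with loss of Nab2 in both sexes while 3 of the other 4 had negative fitted changes in both sexes. The cac product is the Cav2-type channel of synaptic active zones, and its gene lies on the X chromosome at 11931280 to 11985087 (BDGP6.54). Levels were 164, 146 and 165 CPM in wild-type and 168, 229 and 227 CPM in null females, and 179, 179.6 and 214 CPM in wild-type and 305, 250.3 and 309 CPM in null males. Every null library lay above the wild-type libraries of its sex, and null males lay above all other groups. The change was 0.39 ± 0.13 in females (edgeR adjusted p = 0.0384), while males showed 0.59 ± 0.13 (edgeR adjusted p = 0.0142). The female call was lost without wild-type female libraries 1, 2 or 3, null female libraries 2 or 3 or wild-type male library 2 (at 0.32 to 0.43), and with RLE scaling (at 0.37), total counts (at 0.29) or only the female libraries in the fit (at 0.39). The male call was lost without wild-type male libraries 1 or 2 or null male libraries 1 or 3 (at 0.54 to 0.55). With libraries scaled to the neuronal markers, cac was called in both sexes, at 0.76 in females and 0.60 in males.

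The other calcium channel genes were called higher in null males than in null females, as was cac at 0.47 ± 0.13 (edgeR adjusted p = 0.0227), lost without null male libraries 1 or 3 (at 0.42 to 0.43). Ca-alpha1D, the L-type channel of cell bodies and muscle, stood at 159, 162 and 157 CPM in wild-type and 109.7, 161 and 172 CPM in null females, and 193, 186 and 217 CPM in wild-type and 266, 218 and 308 CPM in null males. Null males were the highest group, and null female library 1 was far below all others. Between null males and null females the difference was 0.84 ± 0.16 (edgeR adjusted p = 0.00624), a call that held without any 1 library. For Ca-beta, the cytoplasmic beta subunit, levels were 36.7, 37.1 and 39.99 CPM in wild-type and 18.1, 30.8 and 33.05 CPM in null females, and 41.5, 43.6 and 55.6 CPM in wild-type and 46.3, 41.7 and 51.8 CPM in null males. Null females were below all other libraries, again with library 1 the lowest, and the sexes of the null differed by 0.77 ± 0.19 (edgeR adjusted p = 0.0151), lost without null male library 3 (at 0.69). The alpha2-delta subunit stj, which brings cac to the synapse, stood at 142, 150.4 and 137 CPM in wild-type and 97.7, 121 and 131 CPM in null females, and 168, 155 and 171 CPM in wild-type and 162, 148 and 171 CPM in null males. Null females were below all other libraries, with a difference of -0.30 ± 0.10 from wild-type females (edgeR adjusted p = 0.0464) and of 0.46 ± 0.10 between the sexes of the null (edgeR adjusted p = 0.0111). The female null call of stj held without 1 library only for null female library 3, with values from -0.39 to -0.20 over the 12 omissions, and its call between the sexes of the null was lost without null male library 3 (at 0.41). Ca-alpha1T, the low-voltage T-type channel, stood at 196, 219.7 and 237 CPM in wild-type and 163, 186 and 184 CPM in null females, and 225, 226 and 366 CPM in wild-type and 258, 226 and 266 CPM in null males. Null females were lowest and wild-type male library 3 stood far above the rest, and the sexes of the null differed by 0.49 ± 0.17 (edgeR adjusted p = 0.0447), lost without wild-type female libraries 1, 2 or 3, null female libraries 1, 2 or 3 or null male libraries 1, 2 or 3 (at 0.44 to 0.56).

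The sodium leak channel genes had the lowest median null change of any class in females, -0.56. The channel itself, na (narrow abdomen), keeps clock neurons excitable and needs unc79 and unc80 as partners. For na the levels were 98.96, 111 and 108 CPM in wild-type and 58.4, 77.00 and 80.96 CPM in null females, and 109, 105 and 160.2 CPM in wild-type and 118, 92.7 and 109 CPM in null males. Null females lay below every other library. The female change was -0.56 ± 0.17 (edgeR adjusted p = 0.0257), lost without wild-type female libraries 2 or 3 or null female library 1 (at -0.54 to -0.44). The sexes of the null differed by 0.56 ± 0.17 (edgeR adjusted p = 0.0288), lost without null female library 1 or null male libraries 1 or 3 (at 0.44 to 0.55). Levels of unc79 were 154, 183 and 181 CPM in wild-type and 102, 115.2 and 117 CPM in null females, and 205, 203 and 311 CPM in wild-type and 221, 180.0 and 237 CPM in null males. Null females were again below all others, and wild-type male library 3 was high. Its female change of -0.63 ± 0.16 (edgeR adjusted p = 0.0129) was the lowest of the 44, and the difference between the sexes of the null of 0.93 ± 0.16 (edgeR adjusted p = 0.00458) was the highest. The female call of unc79 was lost without wild-type female library 2 (at -0.58), and its call between the sexes of the null held without any 1 library. In unc80 the values were 167, 196 and 185 CPM in wild-type and 131, 156 and 149 CPM in null females, and 194, 206 and 321 CPM in wild-type and 237, 213 and 244 CPM in null males. The order of the groups was the same, with null females lowest. Its female null change of -0.33 ± 0.16 did not pass (edgeR adjusted p = 0.139), and the sexes of the null differed by 0.67 ± 0.16 (edgeR adjusted p = 0.0143), lost without null male library 3 (at 0.63). In males the null changes of na, unc79 and unc80 were -0.23 ± 0.17, -0.17 ± 0.16 and -0.056 ± 0.16, and none was called.

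Of the 9 nicotinic acetylcholine receptor subunits, 1 was lower in null females and 3 were higher in null males than in null females. Subunits nAChRalpha1, nAChRalpha2 and nAChRbeta2 lie side by side on arm 3R, between 24393896 and 24515106 (BDGP6.54). The levels of nAChRalpha2 were 46.6, 54.9 and 52.7 CPM in wild-type and 35.5, 43.97 and 40.4 CPM in null females, and 56.2, 54.5 and 60.2 CPM in wild-type and 46.2, 49.7 and 48.2 CPM in null males. Null libraries lay below wild-type libraries in both sexes. In females it changed by -0.36 ± 0.09 (edgeR adjusted p = 0.0127), lost without wild-type female libraries 2 or 3 (at -0.34 to -0.31), and the male change of -0.25 ± 0.09 did not pass (edgeR adjusted p = 0.118). Its neighbour nAChRalpha1 stood at 111, 104 and 114 CPM in wild-type and 62.01, 99.9 and 93.6 CPM in null females, and 115.4, 123 and 145 CPM in wild-type and 136, 102 and 119.9 CPM in null males. Null female library 1 was far below all others, and null males and null females did not overlap. Null males and null females differed by 0.48 ± 0.16 (edgeR adjusted p = 0.0446), a call lost without wild-type female libraries 1, 2 or 3, null female library 1, wild-type male libraries 1 or 2 or null male libraries 1 or 3 (at 0.31 to 0.48). The other neighbour, nAChRbeta2, stood at 82.8, 80.5 and 86.2 CPM in wild-type and 81.5, 76.8 and 72.1 CPM in null females, and 88.7, 86.8 and 92.2 CPM in wild-type and 79.1, 77.5 and 73.5 CPM in null males. Null males lay below all wild-type males, with null changes of -0.12 ± 0.07 in females and -0.22 ± 0.07 in males (edgeR adjusted p = 0.0762).

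The remaining nicotinic subunits included 2 that were called between the sexes of the null. Levels of nAChRbeta1 were 27.2, 26.4 and 30.8 CPM in wild-type and 21.1, 25.3 and 25.6 CPM in null females, and 29.8, 32.4 and 45.6 CPM in wild-type and 35.5, 33.2 and 35.3 CPM in null males. Null females were lowest as a group and wild-type male library 3 stood above all others. Between null males and null females the difference was 0.53 ± 0.14 (edgeR adjusted p = 0.0209), lost without null female library 1 or null male libraries 1 or 3 (at 0.46 to 0.51). For nAChRalpha6, the target of the insecticide spinosad, levels were 51.7, 51.1 and 51.7 CPM in wild-type and 37.6, 58.2 and 53.5 CPM in null females, and 54.7, 56.7 and 79.99 CPM in wild-type and 74.8, 69.5 and 69.3 CPM in null males. Null males lay above both female groups, and the sexes of the null differed by 0.52 ± 0.16 (edgeR adjusted p = 0.0349), lost without wild-type female library 3, null female library 1 or null male libraries 1, 2 or 3 (at 0.36 to 0.53). The highest nicotinic subunit per length, nAChRalpha7, which serves the escape circuit of the giant fibre, stood at 142, 130.0 and 148 CPM in wild-type and 91.97, 132 and 124 CPM in null females, and 160.0, 157 and 183 CPM in wild-type and 154, 136 and 148 CPM in null males. Null female library 1 was the lowest of all libraries, and neither null change passed, at -0.27 ± 0.12 in females and -0.19 ± 0.12 in males. The lowest, nAChRalpha3, stood at 44.3, 41.1 and 42.9 CPM in wild-type and 38.8, 62.1 and 64.5 CPM in null females, and 39.98, 40.6 and 57.3 CPM in wild-type and 59.9, 54.6 and 68.6 CPM in null males. Its null changes were positive, 0.37 ± 0.19 in females and 0.41 ± 0.18 in males, and neither passed. For nAChRalpha4 the group means were 23.2 CPM per kb in wild-type and 17.4 CPM per kb in null females, and 22.5 CPM per kb in wild-type and 18.9 CPM per kb in null males, with null differences of -0.41 ± 0.16 in females and -0.25 ± 0.16 in males. For nAChRalpha5 they were 7.19 CPM per kb in wild-type and 7.99 CPM per kb in null females, and 9.03 CPM per kb in wild-type and 10.8 CPM per kb in null males, with differences of 0.15 ± 0.16 and 0.26 ± 0.16. Neither was called in any comparison.

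Among the 6 chloride channels opened by GABA, glutamate or histamine, 2 were lower in null females and 4 were higher in null males than in null females. The histamine receptor ort, which receives photoreceptor signals in the optic lobe, stood at 15.7, 14.4 and 16.8 CPM in wild-type and 8.78, 11.8 and 12.4 CPM in null females, and 14.8, 14.6 and 17.7 CPM in wild-type and 14.9, 18.6 and 13.6 CPM in null males. Null females lay below every other library, while null and wild-type males overlapped. Null females differed from wild type by -0.50 ± 0.15 (edgeR adjusted p = 0.0247), lost without wild-type female libraries 1 or 3 or null female library 1 (at -0.50 to -0.38). The sexes of the null differed by 0.51 ± 0.15 (edgeR adjusted p = 0.028), lost without null female library 1 or null male library 2 (at 0.37 to 0.39). The male change was 0.00 ± 0.15 with a difference between the sexes of -0.51 ± 0.21 (edgeR adjusted p = 0.427). The second histamine channel, HisCl1, which acts in photoreceptors themselves, stood at 28.8, 30.3 and 31.03 CPM in wild-type and 32.9, 26.7 and 28.00 CPM in null females, and 31.6, 28.9 and 31.7 CPM in wild-type and 24.5, 27.1 and 24.5 CPM in null males. Null males lay below all wild-type males, and the female genotypes overlapped. It was 1 of only 3 members with a negative difference of null males from null females (-0.20 ± 0.09), along with Lcch3 and nAChRbeta2, and was called in no comparison. Markers of photoreceptors summed to 36822 to 41222 CPM in wild-type females and 45316 to 58795 CPM in null females, and 3 of the 12 were called higher there.

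Grd, a GABA receptor-like subunit, stood at 23.2, 27.1 and 22.96 CPM in wild-type and 16.5, 19.6 and 20.4 CPM in null females, and 26.7, 26.4 and 25.6 CPM in wild-type and 25.3, 22.8 and 27.8 CPM in null males. Null females were below all other libraries. The female change was -0.37 ± 0.11 (edgeR adjusted p = 0.0193), lost without wild-type female library 2 (at -0.29), and the sexes of the null differed by 0.43 ± 0.11 (edgeR adjusted p = 0.0154), lost without null male library 3 (at 0.35). Of its exonic length, 27.5% overlaps CG5577 on the other strand, and the strand setting used for counting is not given in the sources used here. Rdl, the main GABA receptor subunit and the target of dieldrin, stood at 97.03, 89.4 and 104 CPM in wild-type and 64.4, 107 and 99.6 CPM in null females, and 102, 111 and 163 CPM in wild-type and 146, 123 and 144 CPM in null males. Null female library 1 was far below the rest and wild-type male library 3 was the highest. Null males and null females differed by 0.61 ± 0.20 (edgeR adjusted p = 0.0397), lost without wild-type female libraries 1, 2 or 3, null female library 1 or null male libraries 1, 2 or 3 (at 0.42 to 0.68), and neither null change passed. The glutamate-gated channel GluClalpha, a target of ivermectin, stood at 121, 117 and 132 CPM in wild-type and 112, 138 and 124 CPM in null females, and 142, 140.1 and 154 CPM in wild-type and 165, 152 and 156 CPM in null males. Null males lay above every null female, by 0.34 ± 0.09 (edgeR adjusted p = 0.0188), lost without null male libraries 1 or 3 (at 0.30 to 0.34). The most abundant member per length, Lcch3, stood at 70.4, 79.4 and 72.03 CPM in wild-type and 70.97, 73.4 and 67.2 CPM in null females, and 77.00, 78.1 and 78.8 CPM in wild-type and 74.1, 67.5 and 67.04 CPM in null males. The female genotypes overlapped, while all 3 null males lay below all 3 wild-type males. The null changes of Lcch3 were -0.068 ± 0.07 in females and -0.17 ± 0.07 in males, and it was called in no comparison.

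All 4 ionotropic glutamate receptors were called higher in null males than in null females, and 1 was lower in null females than in wild-type females. GluRIA, an AMPA-type subunit, stood at 44.4, 51.8 and 49.9 CPM in wild-type and 28.2, 38.8 and 42.8 CPM in null females, and 54.6, 51.6 and 58.00 CPM in wild-type and 52.1, 54.1 and 53.5 CPM in null males. Null females were below all other libraries. In females it changed by -0.41 ± 0.13 (edgeR adjusted p = 0.0296), lost without wild-type female libraries 2 or 3 (at -0.39 to -0.36), and the sexes of the null differed by 0.54 ± 0.13 (edgeR adjusted p = 0.0133), lost without null male library 3 (at 0.53). Its relative GluRIB stood at 40.2, 40.3 and 40.8 CPM in wild-type and 19.8, 36.3 and 37.5 CPM in null females, and 46.4, 47.9 and 57.6 CPM in wild-type and 52.3, 42.3 and 50.9 CPM in null males. Null female library 1 was far below the other null females, and the sexes of the null differed by 0.63 ± 0.19 (edgeR adjusted p = 0.0308), lost without null male libraries 1 or 3 (at 0.58 to 0.60). For Nmdar1, the subunit that every NMDA receptor needs, levels were 41.7, 45.7 and 46.3 CPM in wild-type and 37.00, 41.8 and 39.5 CPM in null females, and 49.7, 46.5 and 60.5 CPM in wild-type and 50.8, 48.1 and 48.6 CPM in null males. Null males lay above null females, by 0.32 ± 0.10 (edgeR adjusted p = 0.0331), lost without null female libraries 1 or 3 or null male libraries 1, 2 or 3 (at 0.28 to 0.33). Nmdar2, which joins it in the receptor, stood at 17.4, 24.01 and 23.6 CPM in wild-type and 11.4, 16.9 and 17.1 CPM in null females, and 23.9, 23.04 and 42.2 CPM in wild-type and 25.3, 25.8 and 31.3 CPM in null males. Wild-type male library 3 was far above all others and null female library 1 the lowest, and the sexes of the null differed by 0.86 ± 0.24 (edgeR adjusted p = 0.0222), lost without null female library 1 or null male library 3 (at 0.70 to 0.75). In males, the null changes of the 4 receptors ran from -0.11 ± 0.23 to -0.041 ± 0.13, and none was called.

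**Figure D4:**
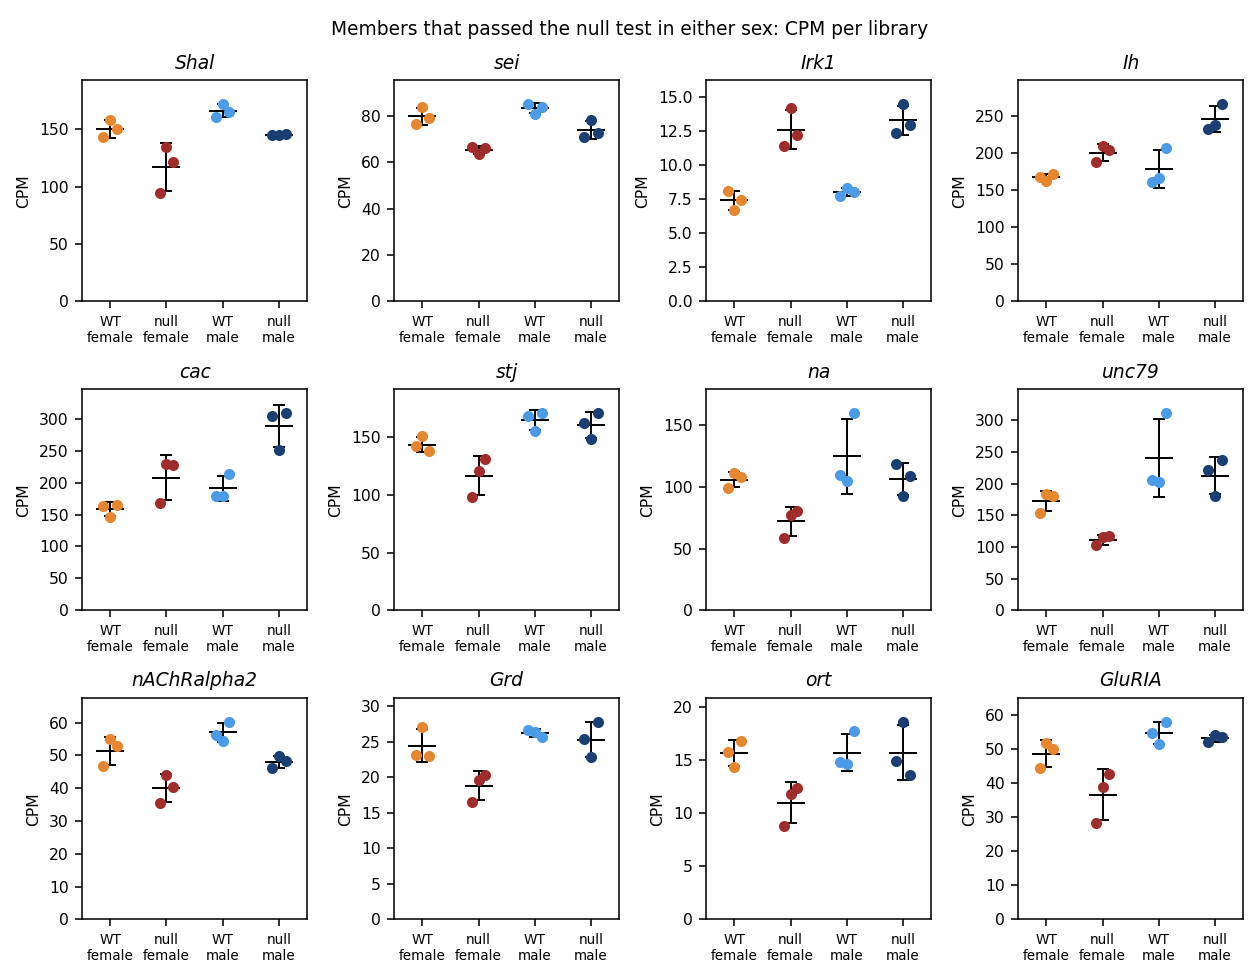
CPM in each library for the 12 members that passed the test of null against wild type in either sex, with the mean and SD of the 3 libraries of a group as bars. Irk1, Ih and cac lie higher in the null, and the other 9 lie lower in the null females.

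The 3 leak channel genes summed to 420.3 to 489.6 CPM in wild-type females and 292 to 348 CPM in null females. The ionotropic glutamate receptors summed to 144 to 162 and 96.4 to 137 CPM in the same groups. The voltage-gated sodium channel genes summed to 413 to 456 and 339 to 405 CPM. In none of these classes did the ranges of the groups overlap. In contrast, the class of slo, SK, Irk1 and Ih summed to 484 to 516 CPM in wild-type females and 487 to 563 CPM in null females, which overlap. The sums of the voltage-gated potassium, calcium, nicotinic and chloride channel classes overlapped as well. Over all 44 members the sums were 4229 to 4401 CPM in wild-type and 3265 to 4234 CPM in null females, and 4646 to 5846 CPM in wild-type and 4777 to 5465 CPM in null males. These sums weigh genes by their abundance and were not tested.

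**Figure D5:**
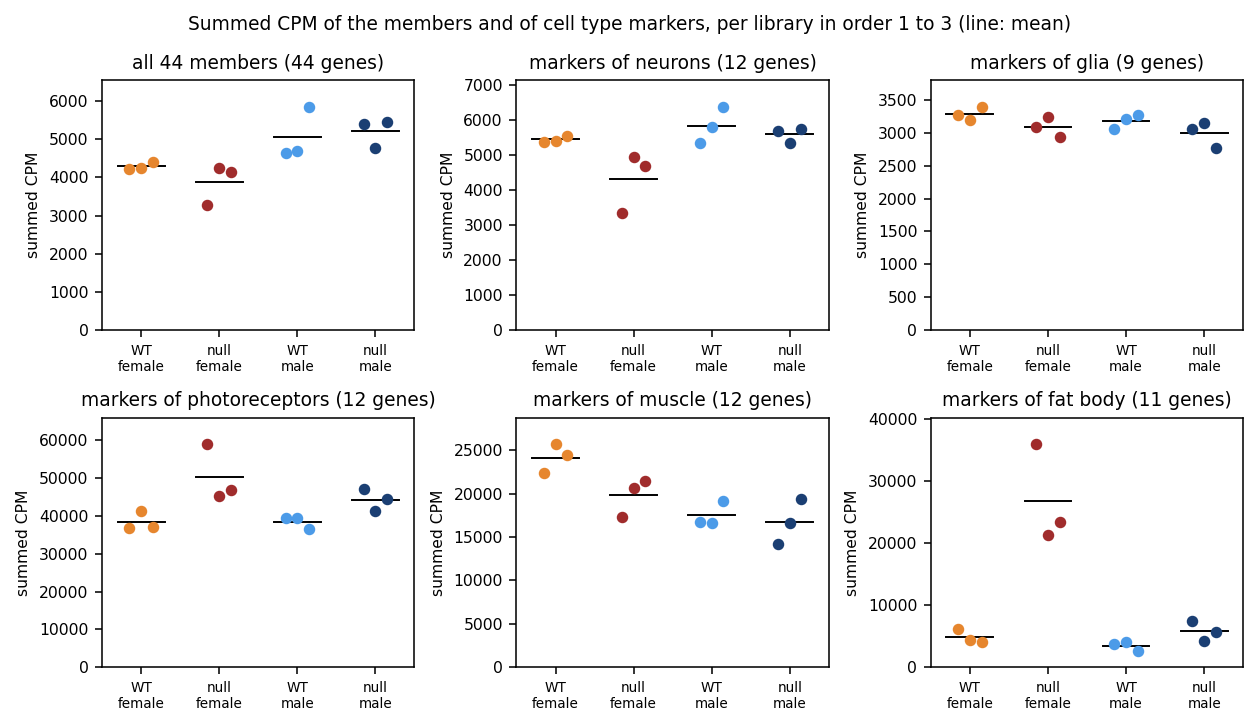
Summed CPM per library of the 44 members and of the markers of neurons, glia, photoreceptors, muscle and fat body in the 4 groups, with a line at the mean of 3 libraries. Neuronal markers were lowest in null female library 1 (3329 CPM), where fat body markers were highest (35931 CPM).

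Most members have long gene models, though HisCl1 and Lcch3, with 1.87 and 1.90 kb of exons, are short. The median span from first to last exon was 24.4 kb, against 2.56 kb for the 11177 tested genes with a matched annotation, and their median exonic length was 7.48 kb against 1.93 kb. They have a median of 5 annotated transcripts against 2, and para has 60. Across the tested genes, the rank correlation (Spearman) of span with log2 change was -0.34 for null against wild type in females, -0.10 in males and 0.41 for males against females in the null. Within the 44 members the same correlations were 0.30, 0.36 and 0.03. These are descriptions across genes that share libraries, and genes are not independent replicates. By chromosome arm, the members called higher in null males than in null females were 5 of 12 on the X, 4 of 5 on 2L, 3 of 7 on 2R, 8 of 9 on 3L and 6 of 11 on 3R. Among all tested genes of these arms, 14.4%, 11.3%, 12.7%, 13.2% and 14.1% were. The X-linked members had a median difference of 0.37 between the sexes of the null, against -0.073 for all tested X-linked genes. On the other arms the medians of the members were 0.59 on 2L, 0.26 on 2R, 0.54 on 3L and 0.32 on 3R. Those of all tested genes were -0.065, -0.079, -0.029 and -0.062.

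Genes of the same kinds outside the 44 were called in both directions. Of 19 other ion channels and auxiliary subunits tested, 4 were lower in null females and none higher, with a median of -0.22, where 13.6% of all genes tested were lower and 18.2% higher. In males 1 was higher and 2 were lower, where 4.89% and 5.03% of all genes were. Ork1, a potassium leak channel, was lower in both sexes, by -0.56 ± 0.10 in females (edgeR adjusted p = 0.00173), while males showed -0.69 ± 0.10 (edgeR adjusted p = 0.000948). Another channel gene, galene (listed as CG9194), was also lower in both, by -0.67 ± 0.12 in females (edgeR adjusted p = 0.00212), while males showed -0.73 ± 0.12 (edgeR adjusted p = 0.0027). ClC-c, a chloride channel of intracellular membranes, was lower in null females, at -0.43 ± 0.14 (edgeR adjusted p = 0.0315). In null males SLO2, a potassium channel related to slo, was higher by 0.58 ± 0.14 (edgeR adjusted p = 0.0212).

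Of 15 other ionotropic receptor subunits tested, 6 were lower and 2 higher in null females, and 2 were lower and 2 higher in null males, to be read against the same shares over all genes. Grik, a kainate-type glutamate receptor, fell in null females by 0.82 on the log2 scale (edgeR adjusted p = 0.00333). Alka (listed as CG12344), a ligand-gated chloride channel subunit, was lower, at -0.69 ± 0.15 in null females (edgeR adjusted p = 0.00504). The nicotinic subunit nAChRbeta3 was lower in both sexes, at -0.60 ± 0.12 in females (edgeR adjusted p = 0.00469), while males showed -0.61 ± 0.13 (edgeR adjusted p = 0.00974). GluRIIB, a receptor subunit of the neuromuscular junction, was higher in both sexes, at 1.32 ± 0.32 in females (edgeR adjusted p = 0.00977), while males showed 1.63 ± 0.31 (edgeR adjusted p = 0.00653), from wild-type means of 0.429 CPM in females and 0.393 CPM in males. GluRIID, another subunit of that receptor, was higher in null females, at 0.49 ± 0.13 (edgeR adjusted p = 0.0149). In null males the pH-sensitive chloride channel pHCl-1 was higher, at 0.68 ± 0.18 (edgeR adjusted p = 0.0358), and CG8916 was lower, at -0.38 ± 0.07 (edgeR adjusted p = 0.0054).

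Of 23 metabotropic transmitter receptors tested, 6 were lower and none higher in null females, 1 was higher and none lower in null males, and 14 were higher in null males than in null females. The shares over all genes tested were 13.6% lower in null females, 4.89% higher in null males and 13.1% higher in null males than in null females. Oamb, an octopamine receptor, was among the 6, at -0.51 ± 0.10 (edgeR adjusted p = 0.00338). The adenosine receptor AdoR was lower at -0.43 ± 0.11 (edgeR adjusted p = 0.0112) and the octopamine receptor Octbeta3R at -0.38 ± 0.10 (edgeR adjusted p = 0.0129). Octbeta2R, a further octopamine receptor, was the 1 higher in null males, at 0.60 ± 0.15 (edgeR adjusted p = 0.0246).

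In the authors' deposited table of comparisons, made with DESeq2, 11 members were lower and 2 higher in null females than in wild-type females at an adjusted p under 0.05, as were 14.4% and 16.5% of all genes with an adjusted p in the authors' deposited table. In males, the authors' deposited table has 5 members higher and 1 lower in the null, against 5.07% and 5.86% of all genes. In the authors' deposited table, 31 members were lower in null females than in null males and none was higher, against 14.9% of all genes in each direction, and no member was called between the wild-type sexes, with 2.64% of all genes higher and 2.66% lower in females.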

How the data were processed

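RNA from 60 pooled heads per library was sequenced in 12 libraries, 3 for each sex and genotype. The deposited files hold counts of reads per gene, made by the authors with STAR 2.5.2b-0 and featureCounts 1.6.0.3 on build BDGP6, per the submitters' processing notes. Those notes give no strand setting, and the labels describe a stranded library kit. The authors' deposited comparisons, made with DESeq2 (Galaxy version 2.11.40.1, per the submitters' processing notes), hold log2 fold changes and p-values, and were used only where named.

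Counts were fitted with edgeR 4.0.16 in R 4.3.3 (TMM scaling, low-count filter, quasi-likelihood test, 4 group means over 12 libraries, Benjamini-Hochberg adjustment over 11223 genes within each of 5 comparisons, prior count 0.125). The spread between replicates gave a common biological coefficient of variation of 13.5%. An SE was taken as log2 change over the root of its F statistic. CPM are counts per 1000000 of the scaled library total. The fit was also run on simulated counts as a check of the code. Those counts had no shifts shared by the genes of a library, and no result given here rests on that check.

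The members and lists were chosen with earlier results of these data known. All members are named. Library values are given for those called in a null or sex comparison and for the highest and lowest of each class, and group means for the rest, except that Elk, nAChRbeta2 and HisCl1, chosen after their values were seen, also have library values. From related lists, up to 3 genes called in each direction per null comparison were named by smallest p, and galene and Alka stand under their older names in the files. NLF-1 was not matched, and pHCl-2 and mAChR-C were not tested. Lengths and positions come from Ensembl annotation of BDGP6.54, in which 99.5% of the 17737 gene names matched. The alternatives were RLE scaling, total counts, no low-count filter, a replicate block, only the compared groups, DESeq2 1.42.0, omission of each library, and, chosen after seeing the data, scaling to the median ratio of 12 neuronal markers.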

Additional observations from a re-analysis of the deposited data

How the results depend on the processing

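The number of members called depended on which libraries shared the fit. With the compared groups only, 4 members were called for the null in females (11 in the fit over all libraries), 1 between the wild-type sexes (0 over all libraries) and 7 between the sexes of the null (26 over all libraries). The shares of all genes called with the compared groups only were 21.1%, 6.09% and 5.29%. For the null in males, where 3 were called, total counts gave 5, DESeq2 7 and neuron marker scaling 1. The shares of all genes called were 10.3%, 13.1% and 2.98%. Neuron marker scaling gave 6 members between the sexes of the null, all lower in males, where 57.0% of all genes were called lower. Omission of 1 library gave 3 to 15 members for the null in females, 1 to 11 for the null in males and 6 to 29 between the sexes of the null, and 0 in each case for the wild-type sexes and for the difference of the null effects. In these omissions the share of all genes called for the null was 18.0% to 33.4% in females and 5.49% to 16.1% in males. Between the sexes of the null the share was 7.96% to 32.2%.

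Of 40 calls on single members, DESeq2 and the replicate block kept 40, RLE scaling and total counts 39, no low-count filter 37 and the compared groups only 14. Neuron marker scaling kept 3 (Irk1 and cac in females, cac in males), lost 22 and turned the sign of 15. In null females the values that turned were sei at 0.12, stj at 0.067 and nAChRalpha2 at 0.013. Between the sexes of the null they were Shal at -0.22, Ih at -0.27, cac at -0.064, Ca-alpha1T at -0.063, stj at -0.079, nAChRalpha1 at -0.030, nAChRalpha6 at -0.0015, nAChRbeta1 at -0.016, Grd at -0.12, GluClalpha at -0.21, ort at -0.0086 and Nmdar1 at -0.24. Among the calls lost, the male changes of Irk1 (0.72) and Ih (0.47) kept their size with larger SEs, of 0.19 and 0.15. That scaling moved the median of all genes by 0.40 in null females and by -0.57 between the sexes of the null, and the cause was not tested.

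With the replicate number as a block, 15 members were called for the null in females, 5 for the null in males, 28 between the sexes of the null and 0 in the other comparisons. The shares of all genes called in the first 3 were 36.2%, 12.4% and 34.4%, against 31.8%, 9.93% and 29.1% without the block. Libraries with the same number did not deviate together throughout (correlations of -0.19 to 0.31), so the numbers were not taken as pairs. Every member had at least 174 counts in every library. Neither the effect of depth nor that of the number of libraries on the calls was tested.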

Other observations

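Markers of 3 further cell types give the setting of the head RNA. Glial markers summed to 3200.1 to 3396 CPM in wild-type and 2936 to 3243 CPM in null females, and to 3065 to 3275 CPM in wild-type and 2767 to 3154 CPM in null males. In null females 1 of the 9 was called higher and 2 lower, and the male genotypes overlapped in their sums. Muscle markers summed to 22318 to 25658 CPM in wild-type and 17331 to 21458 CPM in null females, with 1 of 12 called higher and 1 lower, and to 16622 to 19176 CPM in wild-type and 14204 to 19349 CPM in null males, where none was called. Haemocyte markers summed to 382 to 454 CPM in wild-type and 272 to 291 CPM in null females, and to 345 to 383 CPM in wild-type and 242 to 281 CPM in null males. Of the 6 haemocyte markers, 3 were called higher and 1 lower in null females, while every null female lay below every wild-type female in the sum. Their part in the levels of the 44 members was not tested.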
